A study of Homo sapiens and Mus musculus with 19 samples.

Results

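The IκB kinase (IKK) genes and the kinases that act on them were followed at the transcript level in lung cancer cells whose NF-κB pathway had been switched with retroviruses. The group holds 8 human genes out of 19775 read by the human array: IKBKB, CHUK and IKBKG of the IKK complex, the IKK-related kinases IKBKE and TBK1, and the upstream components MAP3K7, TAB2 and MAP3K14. They were chosen by symbol, with 17 human probe sets that name one of these genes and no other gene. A probe set is the group of short probes that gives 1 signal on the array. All 3 IKBKB probe sets are described, and the brightest probe set stands for each of the other genes. On the mouse array 7 of the 18194 genes had such probe sets, 24 in all, and Chuk was not analysed here.

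IKKα and IKKβ, the products of CHUK and IKBKB, are kinases held together by the scaffold NEMO, the product of IKBKG. The active complex phosphorylates IκB proteins, which are then degraded and release NF-κB. TAK1 (MAP3K7) with its ubiquitin-binding partner TAB2 activates the complex after cytokine signals, whereas NIK (MAP3K14) drives the non-canonical route through IKKα. IKKε (IKBKE) and TBK1 resemble the IKKs and phosphorylate interferon regulatory factors.

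A panel of 5 human lung cancer lines was each transduced with 3 MSCV-type vectors carrying a GFP marker, and the cells were sorted on GFP before RNA was taken. The labels call A549 lung carcinoma, H23, HCC827 and PC9 lung adenocarcinoma, and H358 bronchioalveolar carcinoma. MiG is the control vector. IkB_SR is MiG with the IκBα super-repressor, in which serines 32 and 36 are changed to alanine so that IKK cannot mark it for degradation. IKKb is MiG with an activated IKKβ, in which serines 177 and 181 are changed to glutamate. There was 1 array for each line and vector, 15 in all. Mouse Lewis lung carcinoma cells, which the labels name LLC-kB OVA without saying what kB OVA is, had 2 MiG and 2 IKKb arrays.

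Signals below are the deposited MAS5 signals, which are linear and scaled so that the mean of each array, without its extreme 2 percent at either end, is 500. Array medians lay between 51.3 and 76.5 in the human lines and between 55.0 and 64.4 in LLC. The keratins KRT8 and KRT18 were bright on all 15 human arrays, at 12100 or more, EPCAM and CDH1 were above the 40th percentile of the array on all 15, and KRT19 was below it on 3. The leukocyte gene PTPRC lay below that percentile on 14 of 15 arrays, but ITGAM reached 654 and CD14 227. Of the fibroblast and endothelial markers, PDGFRB and VWF were below it on all 15, whereas COL1A1 (436 to 1470) and PECAM1 (84.5 to 470) were above it on all 15. The summed leukocyte markers ran from 128.6 to 587.7 with MiG, 126.9 to 414.1 with IkB_SR and 113 to 794.2 with IKKb. In LLC, Krt8 and Krt18 read 4550 or more, but the epithelial gene Cdh1 was below that percentile on 4 of 4 arrays and the monocyte gene Cd14 read 503 to 566. The H358 IKKb array stood apart from the other H358 arrays in the Dap spike-in, a bacterial RNA added during sample preparation, at 5142 against 1350 and 1395. Its ratio of 3′ to 5′ actin signal, a sign of RNA quality, was 1.74 against 1.38 and 1.41 and the highest of all arrays. The signal of NFKBIA, the gene carried by IkB_SR, may include the vector's copy. With IkB_SR it exceeded the MiG signal in 4 of 5 lines, but on the array labelled H23 IkB_SR it was 7292 against 9329. With IKKb it was also above MiG, at 8602 against 2200 in H358 and 6877 against 2058 in HCC827. In the other lines it was 1.07-fold to 1.17-fold of MiG with IKKb.

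The 2 catalytic subunits of the complex were present in every line, and neither transcript passed the test between vectors. Differences were tested with limma on log2 of the signal plus 16, with the line as a block and all 15 arrays in 1 fit, and p-values were adjusted by the Benjamini-Hochberg method over 15185 genes. The threshold was 0.05. Between IKKb and MiG 0 of the 8 genes passed, as did 0% of all genes, and 5.53% of all genes had an unadjusted p under the threshold. Between IkB_SR and MiG 0 of 8 passed, beside 0% of all genes, and the unadjusted share was 4.36%. Between IKKb and IkB_SR 1 of the 8 passed, IKBKE, beside 0.922% of all genes. The contrasts share arrays, so the first and second use the same MiG arrays.

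IKBKB is the gene that the IKKb vector encodes, in a mutated form, so each of its probe sets can read the endogenous transcript, the transduced one or both. The brightest, 209341_s_at, did not stand higher with the vector. Its signal with MiG, IkB_SR and IKKb was 944.1, 877.5 and 749.3 in A549. In H23 it was 1016, 849.1 and 846.2, and in H358 it was 908.6, 1289 and 757.6. HCC827 and PC9 had lower signals than these 3 lines with every vector. They were 403.7, 448.6 and 414.6 in HCC827 and 381.4, 325.9 and 348.5 in PC9. The IKKb signal was below MiG in 4 of 5 lines, and the log2 difference was -0.19 ± 0.12 (SE, n = 5 lines, limma adjusted p = 0.907). Against IkB_SR it was -0.20 ± 0.12 (limma adjusted p = 0.485), and without H358, where the IkB_SR array had the highest signal of the 15, it was -0.06.

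The dimmest IKBKB probe set, 211027_s_at, behaved differently from the brightest. Its signal with MiG, IkB_SR and IKKb was 204.2, 245.9 and 291.5 in A549, where it was brightest. It was 41.35, 55.95 and 138.2 in H23 and 61.45, 81.05 and 108.7 in H358. In HCC827 it was 28.75, 7.619 and 115.6, and in PC9 it was 26.87, 12.25 and 79.91. The IKKb array was the highest of the 3 in each of the 5 lines. The MiG and IkB_SR signals of HCC827 and PC9 were under the 40th percentile of their arrays, so the 15.2-fold ratio of IKKb to IkB_SR in HCC827 rests on a denominator near background. Over the lines the log2 difference was 1.06 ± 0.28 between IKKb and MiG, and the raw p of 0.00167 became 0.895 after adjustment over 29625 probe sets in limma. Of all probe sets 2.82% were higher with IKKb than with MiG in 5 of 5 lines, and 0.00675% passed the adjusted threshold. Between IKKb and IkB_SR the log2 difference was 1.19 ± 0.28 (limma adjusted p = 0.0806), where 4.07% of probe sets were higher in all 5 lines and 0.56% passed. IkB_SR and MiG differed by -0.12 ± 0.28 (limma adjusted p = 0.997), where 0% of probe sets passed.

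The third IKBKB probe set, 209342_s_at, was intermediate in brightness and had no common direction. Its log2 difference between IKKb and MiG ran from -0.50 in H358 to 0.40 in H23, with a fitted value of -0.08 ± 0.18. Over the 15 arrays its log2 signal had a Pearson r of 0.83 with the brightest probe set, and 211027_s_at had an r of 0.52 with it. These are descriptions over arrays that share 5 lines. Averaging the 3 probe sets turned the fitted difference between IKKb and MiG from -0.19 to 0.26, so the direction given for IKBKB depends on the probe set. Which probe sets lie inside the transduced sequence was not tested.

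**Figure D1:**
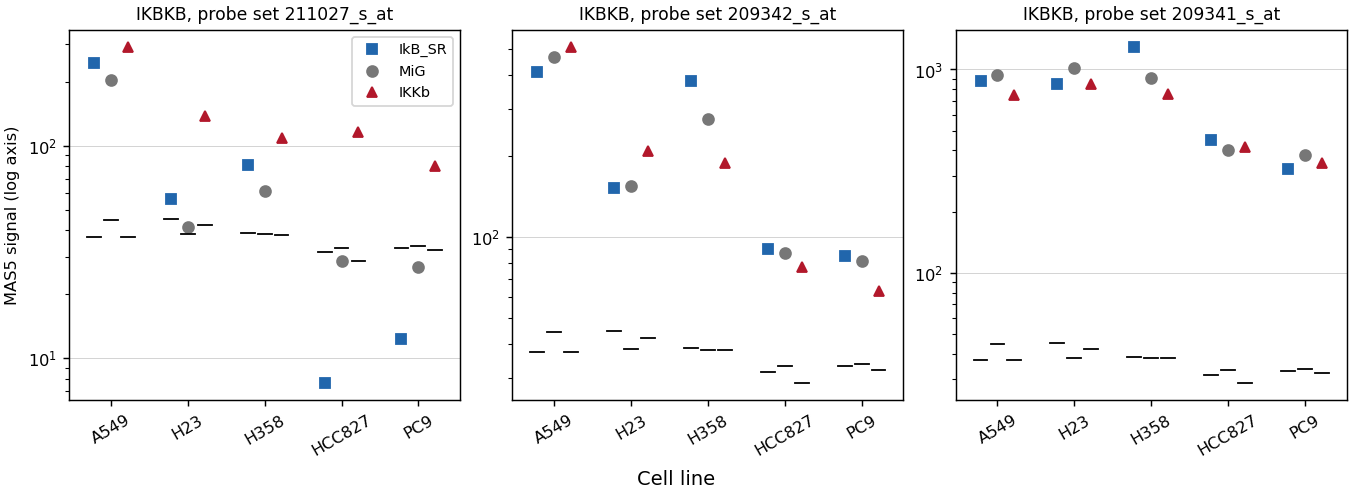
MAS5 signal (log axis) of the 3 IKBKB probe sets on each of the 15 human arrays, by cell line and vector, with a short black line at the 40th percentile of each array. In the dimmest probe set the IKKb array is the highest of its line in all 5 lines, whereas the brightest follows the line, with HCC827 and PC9 at 448.6 or below.

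CHUK, the gene of IKKα, did not pass in any of the 3 contrasts, and its standard errors were among the smallest of the group. Its 15 signals ran from 931.1 to 2063 with a median of 1510. The log2 difference was -0.02 ± 0.08 between IKKb and MiG, -0.07 ± 0.08 between IkB_SR and MiG and 0.06 ± 0.08 between IKKb and IkB_SR, with signs mixed over the lines in each. The smallest of the 3 limma adjusted p-values was 0.8.

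IKBKG, the gene of the scaffold NEMO, also failed the test in each contrast. Its signals ran from 389.2 to 1064. It was higher with IKKb than with IkB_SR in all 5 lines, from 0.03 in HCC827 to 0.36 in H358 on the log2 scale, with a fitted difference of 0.18 ± 0.10 (limma adjusted p = 0.433). Of all genes 4.52% were higher in 5 of 5 lines in that contrast. Its second probe set, 36004_at, was higher in 3 of 5 lines, with a log2 difference of 0.16 ± 0.14. The 2 probe sets had an r of 0.92 over the 15 arrays.

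IKBKE, which encodes IKKε, had the largest difference between IKKb and IkB_SR among the brightest probe sets of the 8 genes, with only the dim IKBKB probe set 211027_s_at above it, and was the only gene to pass the threshold in a human contrast. With MiG, IkB_SR and IKKb its signal was 349.1, 224.4 and 397.2 in A549. In H23 it was 175.1, 142.6 and 158.2, and in H358 it was 213.1, 194 and 526.3. HCC827 read 252.7, 151.7 and 670.8, the widest spread of any line. In PC9 the signals were 248.3, 157.9 and 290.5. The IkB_SR array was the lowest of its line in each of the 5 lines, and the IKKb array was the highest in 4, the exception being H23. The actin 3′ to 5′ ratio was also highest on the IKKb array in those 4 lines and not in H23, at 1.07 against 1.03 and 1.06 in A549, 1.26 against 1.17 and 1.19 in HCC827 and 1.30 against 1.19 and 1.25 in PC9, and its part in the IKBKE difference was not tested.

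Between IKKb and IkB_SR, IKBKE rose by 1.03 ± 0.22 on the log2 scale, or 2.04-fold (SE, n = 5 lines, limma adjusted p = 0.0467), with a range over the lines from 0.14 in H23 to 2.03 in HCC827. The call lay close to the threshold. It held without H23 (1.25, limma adjusted p = 0.0391), whose IkB_SR array read less NFKBIA, but also less TNFAIP3 and RELB, than its MiG array. The adjusted p was 0.0899 without A549, 0.122 without H358, 0.199 without HCC827 and 0.159 without PC9, and the log2 difference was then 0.78 to 1.09. Without only the H358 IKKb array it was 0.90 (limma adjusted p = 0.11). Measured from the control, IKBKE stood 0.57 ± 0.22 above MiG with IKKb (limma adjusted p = 0.878, higher in 4 of 5 lines) and -0.46 ± 0.22 from MiG with IkB_SR (limma adjusted p = 0.996, lower in 5 of 5 lines). Of all genes 3.69% were lower with IkB_SR than with MiG in 5 of 5 lines.

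Between IKKb and IkB_SR the other IKBKE probe set, 214398_s_at, pointed the same way with a smaller difference. It was higher with IKKb than with IkB_SR in 4 of 5 lines, at 320.1 against 197.7 in A549, 195 against 129.6 in H358, 306.7 against 131.2 in HCC827 and 239.7 against 133.7 in PC9. In H23 it was 105.5 against 118.6. The log2 difference was 0.59 ± 0.19 (limma adjusted p = 0.194). Set against MiG, 214398_s_at was higher with IKKb in 4 of 5 lines and lower with IkB_SR in 4 of 5. The exception with IKKb was H358, at 195 against 197.7, where the brighter probe set read 526.3 against 213.1. With IkB_SR it was H23, at 118.6 against 68.47. The H358 rise over MiG, and IkB_SR as the lowest array of H23, thus depend on the probe set. When every probe set was tested in its own right, the adjusted p of the brighter IKBKE probe set was 0.0535.

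**Figure D2:**
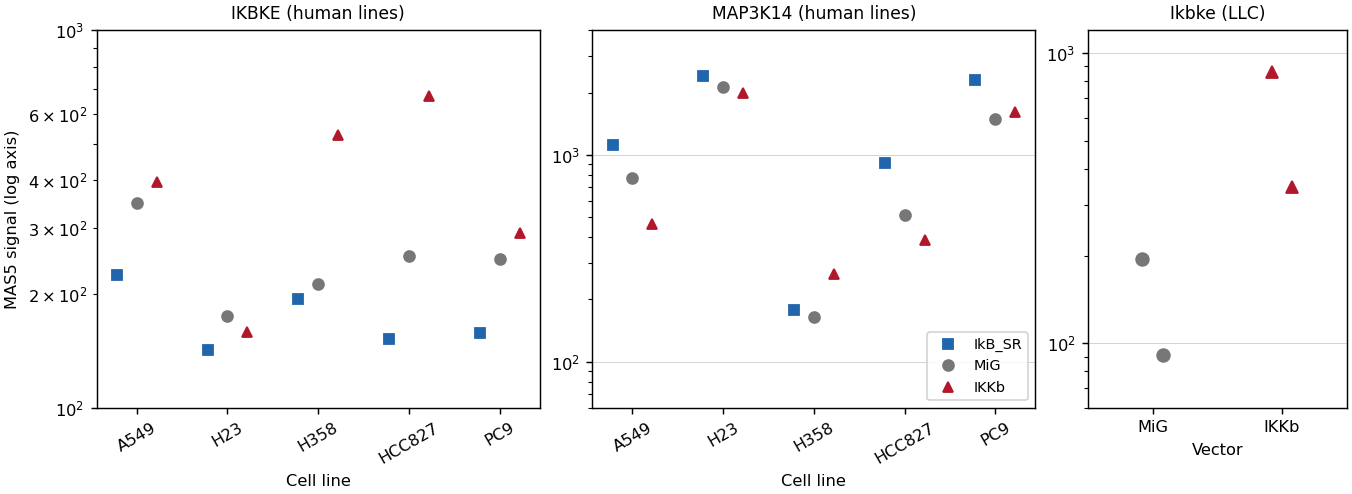
MAS5 signal (log axis) of IKBKE and MAP3K14 on the 15 human arrays by cell line and vector, and of Ikbke on the 4 LLC arrays by vector. In these brightest probe sets the IkB_SR array is the lowest of each line for IKBKE and above MiG in each line for MAP3K14. Both LLC IKKb arrays lie above both MiG arrays.

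TBK1, the closest relative of IKKε, differed between the vectors by less and did not pass in any contrast. Its signals ran from 1227 in HCC827 to 2913 in A549. It was lower with IkB_SR than with MiG in all 5 lines, but by 0.02 to 0.22 on the log2 scale only, with a fitted difference of -0.11 ± 0.07 (limma adjusted p = 0.996). With IKKb it stood 0.13 ± 0.07 above IkB_SR (limma adjusted p = 0.453), higher in 4 of 5 lines, and the IKKb array was the highest of its line in the same 4, all but H358. The difference between IKBKE and TBK1 in their response was not tested.

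Upstream of the complex, MAP3K14 had the next largest difference between IKKb and IkB_SR among the brightest probe sets, in the direction opposite to IKBKE. NIK, its product, is kept low in resting cells by degradation, so its transcript and protein need not follow each other. The MAP3K14 signal with MiG, IkB_SR and IKKb was 773.6, 1120 and 460.8 in A549. It was 2128, 2411 and 1985 in H23 and 514.5, 912.4 and 388.1 in HCC827. In these 3 lines IkB_SR was the highest and IKKb the lowest. PC9 read 1494, 2287 and 1605, with IkB_SR again the highest. H358 had the lowest signals, 164.4, 178 and 265.3, and there the IKKb array was the highest.

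Between IkB_SR and MiG, MAP3K14 was higher in all 5 lines, by 0.10 in H358 to 0.81 in HCC827 on the log2 scale, and the fitted difference was 0.45 ± 0.20 (limma adjusted p = 0.996). Of all genes 4.04% were higher in 5 of 5 lines in this contrast. Between IKKb and IkB_SR it was lower in 4 of 5 lines, with a fitted difference of -0.54 ± 0.20 (limma adjusted p = 0.239). The call changed only when H358 or its IKKb array was left out. Without the line the difference was -0.81 (limma adjusted p = 0.031). Without only its IKKb array, the one that stood apart in the Dap spike-in, it was -0.77 (limma adjusted p = 0.0379). The difference shrank to -0.36 without A549 (limma adjusted p = 0.432) and to -0.38 without HCC827 (limma adjusted p = 0.516). It was -0.61 without H23 (limma adjusted p = 0.339) and -0.55 without PC9 (limma adjusted p = 0.408). IKKb and MiG differed by -0.10 ± 0.20 with mixed signs, and by -0.32 without the H358 IKKb array (limma adjusted p = 0.923).

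MAP3K7, the gene of TAK1, had 4 probe sets that did not move together. The brightest, 206854_s_at, ran from 699.7 to 1901 and differed between IKKb and MiG by 0.08 ± 0.08 (limma adjusted p = 0.927), higher in 4 of 5 lines. The 2 probe sets with an x in their name, which marks probes that may also bind other transcripts, were lower with IKKb in 5 of 5 lines, as were 4.72% of all probe sets. For 211536_x_at the log2 difference was -0.21 ± 0.12 and for 211537_x_at it was -0.23 ± 0.13, both with a limma adjusted p of 0.899. Over the 15 arrays their log2 signals had an r of 0.29 and 0.31 with the brightest probe set. Averaged over the probe sets, MAP3K7 stood at -0.09 instead of 0.08, so no direction can be given for it.

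TAB2, the adaptor of TAK1, ran from 1595 to 3895 in 212184_s_at, with the 3 H23 arrays above all others. Its log2 differences were -0.07 ± 0.08 between IKKb and MiG, 0.02 ± 0.08 between IkB_SR and MiG and -0.09 ± 0.08 between IKKb and IkB_SR, none with a limma adjusted p below 0.667. The third TAB2 probe set, 1561300_at, was under the 40th percentile of its array on all 15 arrays and was the only one of the 17 human probe sets not to pass the filter on low signals.

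Across the 8 genes the median log2 difference between IKKb and IkB_SR was 0.07, beside -0.01 over all genes. Between IKKb and MiG the members' median was 0.00 against -0.02 over all genes, and between IkB_SR and MiG it was -0.04 against 0.00. All 8 genes passed the filter on low signals.

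**Figure D3:**
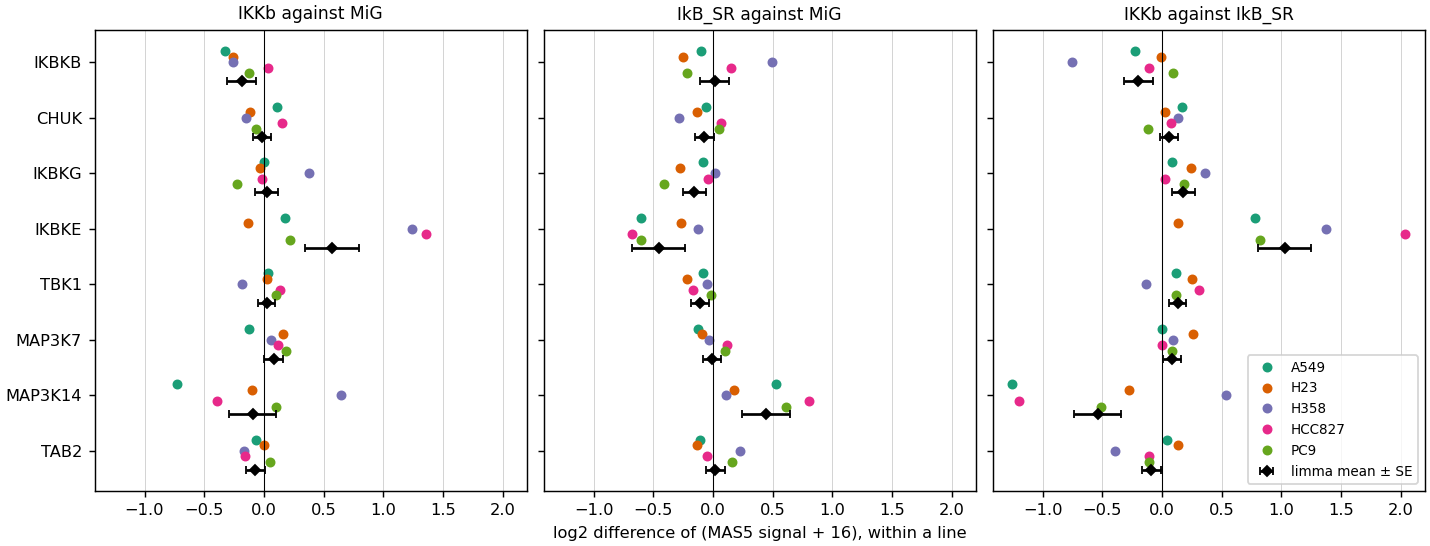
Log2 difference of (MAS5 signal + 16) for the brightest probe set of each of the 8 genes in 3 contrasts, 1 coloured point per cell line, with the limma estimate and its standard error in black. IKBKE spreads from 0.14 to 2.03 between IKKb and IkB_SR, MAP3K14 from -1.25 to 0.54, and the points of the other genes lie between -0.75 and 0.50 in every contrast.

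In LLC the largest difference of the 7 genes again belonged to the gene of IKKε. Ikbke read 194.8 and 91.36 on the MiG arrays and 860.3 and 345 on the IKKb arrays. Both IKKb arrays were above both MiG arrays, as for 10.9% of all mouse genes. The log2 difference was 1.90 ± 0.49, or 3.74-fold (SE, n = 2 arrays per vector), with a raw p of 0.0069 that did not pass adjustment over 12555 genes (limma adjusted p = 1). None of the 7 genes passed, 0 of 7, beside 0.0239% of all mouse genes, and 1.87% had an unadjusted p under the threshold. The call depended on single arrays: the difference was 2.39 without MiG array 1 (limma adjusted p = 2.03e-07) and 1.42 without MiG array 2 (limma adjusted p = 0.00946). It was 1.26 without IKKb array 1 (limma adjusted p = 1) and 2.54 without IKKb array 2 (limma adjusted p = 0.0577). The lone array of a group is then assumed to vary like the other group. The Dap spike-in split the arrays by number and not by vector, at 2079 and 1877 for the arrays numbered 1 and 33 and 10 for those numbered 2. Between the arrays of high Dap the Ikbke difference was 2.06, and between those of low Dap it was 1.75. Summed signals of the 5 epithelial markers were 12090 to 14480 with MiG and 9434 to 9885 with IKKb, and their part in the Ikbke difference was not tested.

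The 5 Ikbkb probe sets in LLC disagreed with each other. The brightest, 1426207_at, read 1637 and 1535 with MiG and 2059 and 1745 with IKKb, a log2 difference of 0.26 ± 0.18 (limma adjusted p = 1). The dim 1454184_a_at read 39.55 and 17.55 with MiG and 79.36 and 36.97 with IKKb, so the groups overlapped. The dim 1445141_at went the other way, with 34.65 and 63.01 against 17.7 and 30.49, both IKKb arrays below both MiG arrays as for 9.77% of mouse probe sets. Averaged over the 5 probe sets the difference was 0.04. Between IKKb and MiG none of the 24 mouse probe sets passed in the fit over probe sets, where 0% of 23488 did.

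The remaining mouse genes did not pass either. In the brightest probe sets the log2 difference was 0.11 ± 0.19 for Ikbkg, -0.12 ± 0.23 for Tbk1, 0.19 ± 0.22 for Map3k7, -0.09 ± 0.32 for Map3k14 and -0.06 ± 0.20 for Tab2, each with a limma adjusted p of 1. Map3k14 read 98.88 to 148.3, with its MiG and IKKb arrays overlapping. The IkB_SR vector was not used in LLC, so the human contrast in which IKBKE passed has no mouse counterpart here.

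**Figure D4:**
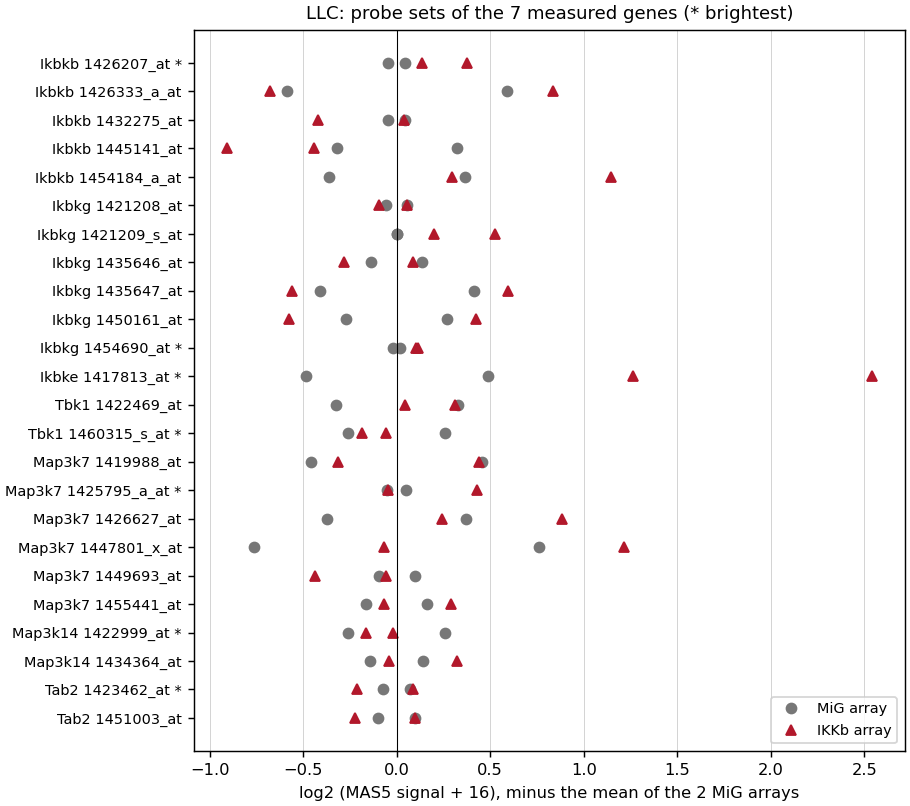
Log2 (MAS5 signal + 16) of the 24 probe sets of the 7 mouse genes on each LLC array, minus the mean of the 2 MiG arrays, with the brightest probe set of each gene starred. The IKKb arrays of Ikbke lie at 2.54 and 1.26 above the MiG mean.

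All 8 genes differed between the lines. In a limma F-test over the 5 lines with the vector as a covariate, 8 of 8 passed, beside 86.9% of all genes. The 3 arrays of a line differ in vector and are not replicates of 1 condition. The Dap spike-in also differed between lines, from 168 to 183 in A549 and up to 5560 elsewhere, so line and array preparation cannot be told apart.

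MAP3K14 had the widest spread between lines, 10.2-fold between the means of H23 and H358 (limma adjusted p = 9.2e-08). The order was H23, PC9, A549, HCC827 and H358. The ranges of H23 and PC9 over the vectors overlapped, as did those of A549 and HCC827, and all 3 H358 signals, 265.3 or lower, lay below the 12 others. IKBKE had the narrowest spread, 1.90-fold, with ranges that overlapped for every pair of neighbours in the order A549, HCC827, H358, PC9 and H23. Its call between lines (limma adjusted p = 0.0438) was lost without A549 (0.0853) and without H23 (0.378).

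For IKBKB in its brightest probe set, H358, H23 and A549 overlapped at mean signals of 985.2, 903.7 and 857, and HCC827 and PC9 followed at 422.3 and 351.9 with a gap. CHUK fell in the order A549, HCC827, H23, H358 and PC9, from a mean signal of 1940 to 971.1, and HCC827 and H23 overlapped. IKBKG was highest in A549 at 1044 and lowest in H358 at 431.1. TBK1 was highest in A549 at 2816, with H23 next and overlapping, and lowest in HCC827 at 1378. In their brightest probe sets MAP3K7 and TAB2 shared their first 3 places, H23, HCC827 and PC9. H23 stood at 1729 for MAP3K7 and 3779 for TAB2, with no overlap with the next line. This order depends on the probe set. TAB2 was lowest in A549 in its brightest probe set, but 210284_s_at read 1112 to 1210 there and 854.1 to 992.5 in HCC827. The MAP3K7 probe sets 211536_x_at and 211537_x_at were highest in A549, at 589.6 or more and 797.7 or more. The spreads of these 6 genes ran from 1.98-fold for CHUK to 2.66-fold for IKBKB.

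**Figure D5:**
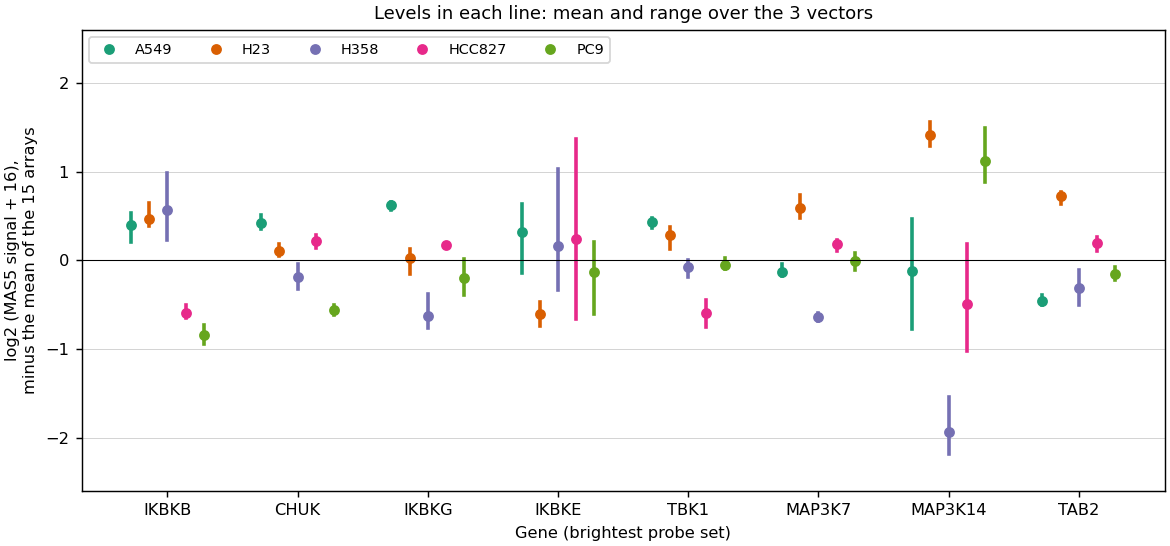
Log2 (MAS5 signal + 16) of the brightest probe set of each of the 8 genes in the 5 human lines, minus the gene's mean over the 15 arrays; points are means over the 3 vectors and bars the range. MAP3K14 is lowest in H358 with a 10.2-fold spread, and the bars of IKBKE are long against the distances between its points.

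For each member the genes with the most similar pattern over the 15 arrays were listed, and whether these genes followed the line was not tested. For IKBKB these were TP53INP2 (r = 0.98) and FNTA (r = 0.98), which lies on the same chromosome with 10 protein-coding genes between them. CHUK was closest to EXOSC1 (r = 0.97), on its own chromosome with 30 protein-coding genes between, and to SCO1 (r = 0.96). IKBKG paired with DUSP3 (r = 0.97) and BORCS7 (r = 0.96), TBK1 with TARBP2 (r = 0.97) and TTC28 (r = 0.96), and MAP3K7 with STK4 (r = 0.98) and PHF23 (r = 0.97). MAP3K14 paired with CNOT7 (r = 0.94) and IGF2BP1 (r = 0.94), and TAB2 with PLAC8 (r = 0.98) and ZNF217 (r = 0.97). IKBKE had the lowest values of likeness, with LPXN (r = 0.86) and TNFRSF9 (r = 0.86), the gene of the co-stimulatory receptor 4-1BB. TARBP2, IGF2BP1 and TNFRSF9 also lie on their member's chromosome, with 151, 57 and 1655 protein-coding genes between, and the remaining like genes do not. These correlations are descriptions over 15 arrays that share 5 lines, chosen as the highest of all genes.

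Among the members themselves, each read by its brightest probe set, MAP3K7 and TAB2 had the highest correlation over the 15 arrays (r = 0.82), and MAP3K7 and MAP3K14 the next (r = 0.78). After the mean of each line was taken away, these fell to 0.02 and 0.09. The pair of largest size was then TBK1 and MAP3K14 (r = -0.78). IKBKE and MAP3K14 stood at -0.50 both before and after the line means were removed. Other probe sets of a gene need not give the same pairs. TAB2 210284_s_at had an r of 0.51 with the brightest TAB2 probe set, and the other MAP3K7 probe sets 0.29 to 0.66 with theirs.

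The 2 genes whose brightest probe sets differed most between IKKb and IkB_SR are shown with the 250 bases before their RefSeq start (GRCh38.p14, 5′ to 3′ on the gene's strand), because NF-κB acts through kappaB sites in promoters. Capitals mark matches on either strand to a relaxed form of the site: GGG, any 5 bases, then CC. Overlapping matches run together. IKBKE lies at chr1:206470226-206470475 on the plus strand and MAP3K14 at chr17:45317021-45317270 on the minus strand.
IKBKE: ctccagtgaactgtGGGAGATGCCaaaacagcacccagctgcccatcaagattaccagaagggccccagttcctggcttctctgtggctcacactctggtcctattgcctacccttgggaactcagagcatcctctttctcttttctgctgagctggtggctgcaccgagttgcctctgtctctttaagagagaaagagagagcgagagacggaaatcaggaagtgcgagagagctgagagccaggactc
MAP3K14: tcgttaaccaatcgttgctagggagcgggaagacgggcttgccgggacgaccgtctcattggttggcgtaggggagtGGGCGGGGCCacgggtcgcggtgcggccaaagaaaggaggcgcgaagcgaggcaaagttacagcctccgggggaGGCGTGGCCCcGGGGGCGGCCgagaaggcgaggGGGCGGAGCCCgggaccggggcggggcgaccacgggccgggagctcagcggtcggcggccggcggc

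IKBKE had 1 relaxed match in this window, GGGAGATGCC, which starts 236 bases before the gene's start, and MAP3K14 had 5. The stricter kappaB consensus matched neither. Of the 8 genes 7 had promoters in the RefSeq table, 11 in all, and 10 of these held a relaxed match and 1 the consensus, in TAB2. Over 35116 promoters of the same length 54.4% held the relaxed form and 9.96% the consensus on either strand. A match in these letters does not show binding.

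The other genes of the pathway were read from lists of named components, each gene by its brightest probe set. Between IKKb and MiG and between IkB_SR and MiG 0 genes of any list passed. Between IKKb and IkB_SR genes of 4 of the 6 lists passed, all higher with IKKb, beside 0.599% of all genes higher and 0.323% lower.

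Among receptor-proximal adaptors and ubiquitin ligases 2 of 14 rose, with a list median of 0.13 beside -0.01 over all genes. TRAF3, which with TRAF2 and the cIAP ligases marks NIK for degradation, rose by 1.03 ± 0.18 (limma adjusted p = 0.0164). BIRC2, the gene of cIAP1, rose by 0.66 ± 0.10 (limma adjusted p = 0.00683). The MAP3K14 transcript was -0.54 in this contrast without passing (limma adjusted p = 0.239), and no link between it and these genes was tested. TRAF3 read 1181, 715.4, 529.9, 657.1 and 1764 with IkB_SR and 1939, 1287, 2200, 1397 and 2570 with IKKb in A549, H23, H358, HCC827 and PC9. The IKKb array was the higher in each line.

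Of the deubiquitinases and other inhibitors that restrain the IKK complex, 3 of 8 rose, and the list median was 0.20. TNFAIP3, which encodes the feedback inhibitor A20, rose by 3.39 ± 0.41, or 10.5-fold (limma adjusted p = 0.00144). Its partner TNIP1 rose by 1.32 ± 0.15 (limma adjusted p = 0.000795), and CYLD, which removes ubiquitin chains from NEMO and TRAF proteins, by 1.39 ± 0.23 (limma adjusted p = 0.0153). CYLD was lost without H23 (0.0606), HCC827 (0.0661) or PC9 (0.0916), and its rise was 0.47 (adjusted p = 0.273) when its probe sets were averaged. BIRC2 was lost without HCC827 (0.0636) or PC9 (0.0643), and TRAF3 without HCC827 (0.0841) or PC9 (0.0507).

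Among the adaptors and substrates of TBK1 and IKKε 1 of 9 rose, OPTN, the autophagy receptor that TBK1 phosphorylates, by 1.32 ± 0.17 (limma adjusted p = 0.00227), and the list median was 0.12. Neither IKK chaperones, 0 of 3, nor other kinases and partners of TAK1 and NIK, 0 of 9, held a gene that passed. The smallest p in these lists belonged to CDC37 (0.11 ± 0.10, limma adjusted p = 0.643) and MAP4K4 (0.39 ± 0.12, limma adjusted p = 0.156). Their list medians were both 0.05.

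Among the NF-κB and IκB genes, only some of which encode substrates of the complex, 4 of 9 rose and the list median was 0.43. The 9 include NFKBIA, the gene that IkB_SR carries, so its IkB_SR signal may include the vector's copy. RELB rose by 2.16 ± 0.23 (limma adjusted p = 0.000795), NFKB2, whose precursor NIK and IKKα process, by 1.70 ± 0.21 (limma adjusted p = 0.00161), NFKBIE by 1.41 ± 0.19 (limma adjusted p = 0.00367) and NFKB1 by 0.85 ± 0.10 (limma adjusted p = 0.00144). In H23, where IKBKE differed least, RELB still read 847 with IKKb and 259.4 with IkB_SR. In LLC only Nfkbie of these lists passed, with a rise of 3.54 ± 0.29 (limma adjusted p = 0.0379), from 67.92 and 106.6 with MiG to 1376 and 976.4 with IKKb.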

How the data were processed

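The authors deposited 1 linear intensity for each probe set, made with GCOS 1.4 and MAS5 per the submitters' processing notes. The human table holds 54675 probe sets, of which 41097 name 1 gene, and the mouse array has 45101, of which 34958 do. Scaling to a common mean removes differences in total RNA, and dim MAS5 signals are noisy. Detection calls were not used here.

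Probe sets naming 1 gene were used, the brightest by mean signal for each gene. Genes above the 40th percentile of the array on 5 or more human arrays (2 or more for LLC) entered the fit, 15185 in the human lines and 12555 in LLC. log2(signal + 16) was fitted in limma 3.58.1 (R 4.3.3; lmFit, eBayes with trend, two-sided), with the line as a block in the human fit, since each line gave all 3 vectors, and no block in LLC. A fold change on this scale understates changes of dim genes. Lines are not replicates of 1 line, and nothing says that the LLC arrays came from separate cultures, so p-values measure only the spread between these arrays. No 2 arrays held identical values. Named were all 8 genes, and from each list up to 4 genes past the threshold with the smallest p, or the 1 with the smallest p where none passed. The members and lists were chosen with earlier results of these data known. The fit was tested on simulated data with independent noise. That noise was capped below the residual SD of IKBKE (0.35) and MAP3K14 (0.31), so the test does not cover genes as variable as these. Alternatives covered the pseudocount, normalisation, filter, trend, probe set summary, block, compared arrays and each array or line left out. Plots used matplotlib 3.10.9 (Python 3.11.15).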

Additional observations from a re-analysis of the deposited data

How the results depend on the processing

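The call of IKBKE between IKKb and IkB_SR was sensitive to the processing. The number of the 8 genes past the limma threshold in that contrast was 1 as reported and 0 with a pseudocount of 1 (adjusted p of IKBKE 0.0577) or 64 (0.0516), without a filter (0.0731), when the variance had no trend (0.125), when a gene's probe sets were averaged (0.0652), without the replicate block (1) and in fits of just the vectors compared (0.269). It was 0 to 1 when a line, or the H358 IKKb array, was left out, and the 1 without H358 or without that array was MAP3K14 and not IKBKE. IKBKE passed with quantile normalisation (0.043), median centring (0.0349) and a filter at the 60th percentile (0.0447), and its log2 difference stayed between 0.78 and 1.25 throughout. Of all genes 140 passed there, 86 without a filter, 21 without a trend, 44 with the mean of probe sets, 15 with the compared vectors only and 24 to 128 with a line left out (65 without H23, 31 without HCC827, 24 without PC9). With the line block taken out 0 passed in limma. The calls were 91 higher and 49 lower, and 101 and 31 after median centring. In LLC the replicate block, whose meaning the labels do not give, moved the calls from 3 to 222 genes and the members past the threshold from 0 to 1, Ikbke (adjusted p = 2.66e-08), and same-numbered arrays deviated together with a correlation of 0.53. Leaving out 1 LLC array gave 0 to 1 members and 5 to 140 genes. LLC calls over all genes fell to 0 in limma under 6 settings: either other normalisation, either other filter, no trend, or averaged probe sets. Of all the members' values under these alternatives, 444 kept their call or stayed uncalled within 1 SE and 14 stayed uncalled but moved by more. The 12 that lost a call were all of IKBKE between IKKb and IkB_SR, the 5 that gained one were of MAP3K14 and Ikbke, and no called value changed sign. IKBKE lost its call between lines without a filter (0.059) or a trend (0.0718). Depth is not defined for arrays, and 1 array per line and vector limits the precision.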

Other observations

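Beside the members, the array carries a probe set for MAP3K14-AS1, an antisense transcript at the MAP3K14 locus, which was dim: its signals were 4.957 to 73.87, and it was under the 40th percentile of its array in A549 with MiG (34.39) and above it there with IkB_SR (73.87). In PC9, where MAP3K14 itself read 1494 to 2287, MAP3K14-AS1 read 45.22 with MiG, 4.957 with IkB_SR and 7.974 with IKKb. The PC9 signals with IkB_SR and IKKb were under the 40th percentile of their arrays. IKBKB-DT, the divergent transcript at IKBKB, was measured in A549 at 200.9 to 239.2 with the 3 vectors. In HCC827 it read 74.05 with MiG, 22.51 with IkB_SR and 19.87 with IKKb, and in PC9 158.5, 183.6 and 43.19. The HCC827 signals with IkB_SR and IKKb were under the 40th percentile of their arrays. With MiG, IkB_SR and IKKb it read 90.84, 39.78 and 109.8 in H23 and 128.8, 80.92 and 111 in H358. The H23 IkB_SR signal was also under that percentile. With 1 array per line and vector these differences have no replicate check.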
